A study of Mus musculus with 33 samples.

Results

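The Hoxb cluster of the mouse, a row of homeobox genes on chromosome 11, was followed in cultures of embryonic stem cells that passed from paraxial mesoderm (PM) into differentiation with either an agonist or an inverse agonist of retinoic acid receptors. The members were the 9 genes whose symbol in the count table was Hoxb1 to Hoxb9, of 17120 genes in all, and each of the 9 was present and passed the filter on low counts. RNA was sequenced from 33 libraries in 11 groups of 3. The PM group was collected at culture day 6 (D6) as embryoid bodies. The other 10 groups were monolayers plated from PM and collected at 5 times from D6.25 to D10 (also D6.75, D7.5 and, later, D8.5) with either CD1530, an agonist of retinoic acid receptor gamma, or AGN 193109 (AGN), which acts on that receptor family as an inverse agonist. The stem cells came from blastocysts carrying the ScxGFP tendon reporter, so every group carried it, and the labels do not say which line gave which library. By the study's methods, embryoid bodies formed with the BMP inhibitor LDN-193189, PM was induced with CHIR, a Wnt agonist, plus LDN-193189, and all induced groups received TGFβ1, SAG (a hedgehog agonist) and FGF2. The methods also add AGN to the PM step of this protocol, so the AGN cultures would have stayed on that compound while the CD1530 cultures changed from it.

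The design sets limits on each comparison. CD1530 and AGN were used at different concentrations, and no induced group was grown without either, so a difference between them cannot be assigned to the agonist or to the inverse agonist. PM differs from every induced group in plating, medium and time together, and these cannot be told apart. The samples are bulk cultures, in which fewer cells of a type and less RNA per cell cannot be told apart. The methods call the 3 libraries of a group biological replicates, and whether these were separate differentiations of the same line is not stated in the labels.

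Hox genes encode transcription factors that give cells their position along the body axis. Within a cluster the order of the genes follows the order of their use. Genes at the 3′ end, such as Hoxb1, are switched on early and reach anterior limits in the embryo, and genes towards the 5′ end, such as Hoxb9, are switched on later and end more posteriorly. Retinoic acid acts on Hox genes through response elements in and near the clusters, and Wnt, FGF and Cdx factors act on them too. In paraxial mesoderm the resulting Hox code sets the identity of vertebrae. Hox proteins bind DNA together with Pbx and Meis partners.

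The cluster from Hoxb9 to Hoxb1 spans chr11:96271457-96368256 on GRCm38, 96800 bp, with all 9 genes on the plus strand. Hoxb1 lies at its 3′ end (chr11:96365752-96368256) and Hoxb9 at the other (chr11:96271457-96276595). Promoter sequence was at hand for only 3 of the 9 members, Hoxb1, Hoxb4 and Hoxb8, and all 3 are shown. Their courses are described below. Hoxb4 rose with both compounds, while Hoxb1 and Hoxb8 shared a late rise above PM with CD1530 alone. Hoxb1 was nearly lost with AGN, and Hoxb8 fell at D6.25 with both compounds. Each line gives the 250 bases before the start site, 5′ to 3′ on the plus strand, from RefSeq (GRCm38.p6), with motif matches in capitals.
Hoxb1, chr11:96365508-96365757: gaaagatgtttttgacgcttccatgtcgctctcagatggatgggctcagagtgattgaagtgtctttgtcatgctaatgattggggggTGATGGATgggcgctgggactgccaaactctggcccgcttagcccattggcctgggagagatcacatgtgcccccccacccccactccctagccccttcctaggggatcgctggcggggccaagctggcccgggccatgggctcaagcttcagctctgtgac
Hoxb4, chr11:96318017-96318266: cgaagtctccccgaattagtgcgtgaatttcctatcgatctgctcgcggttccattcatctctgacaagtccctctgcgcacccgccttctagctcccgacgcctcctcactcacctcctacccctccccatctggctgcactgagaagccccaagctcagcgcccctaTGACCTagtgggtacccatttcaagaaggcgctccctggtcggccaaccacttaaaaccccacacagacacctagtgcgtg
Hoxb8, chr11:96281655-96281904: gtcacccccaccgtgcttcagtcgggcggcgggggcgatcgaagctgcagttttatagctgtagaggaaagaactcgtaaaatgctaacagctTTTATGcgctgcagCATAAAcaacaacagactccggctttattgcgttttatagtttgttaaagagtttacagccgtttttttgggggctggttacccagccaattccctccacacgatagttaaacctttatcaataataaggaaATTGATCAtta
Motifs were searched on both strands. The Hoxb1 window held 1 match to TGATNNAT, a site bound by Pbx and Hox proteins together, at 162 bases before the start, where 7.68% of the 32851 promoter windows held such a match. The Hoxb4 window held 1 match to AGGTCA, the core of the sites that retinoic acid receptors bind, on the opposite strand, against 14% of windows. The Hoxb8 window held 2 matches to TTTATG, a Cdx site, where 10.8% of windows held at least 1, and 1 match to TGATNNAT on the opposite strand. None of the 3 windows held AGGTCA as a direct repeat spaced by 5 or by 2 bases, each of which was present in 0.00913% of windows. Matches of this kind describe letters only, and their absence says nothing of a factor.

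Total counts per library were 17116084 to 22775275, except 38120841 in AGN D8.5 replicate 1, and replicates of a group correlated across genes at 0.9927 to 0.9977. In PM libraries the 8 listed paraxial mesoderm markers summed to 128 to 136 CPM. Among them were Tbx6 at 9.56 ± 0.77 CPM (SD, n = 3), Dll1 at 15.0 ± 1.7 and Tcf15 at 14.1 ± 0.4. The 5 listed endoderm markers (Sox17, Foxa2, Cdh1, Epcam and Afp) summed to 674 to 696 CPM. By D7.5 this sum was lower with both compounds, although 3 of the 5 genes were higher than in PM and 2 lower. Of all genes, 39.8% were higher and 34.3% lower with CD1530 on that day, and 37.3% and 34.2% with AGN. The endoderm sum thus does not follow most of its genes. PM libraries also held Sox2 at 536 ± 6 CPM, with the neural gene Sox1 at 0.08 ± 0.05. CPM are counts scaled to the size of each library with TMM factors. The library kit named in the methods does not mark strand, so reads of a gene and an overlapping antisense gene cannot be told apart. This touches Hoxb3, where Hoxb3os covers 52.9% of the exon length, Hoxb2 (27.3%, the same gene) and Hoxb5 (3.59%, Hoxb5os), and none of the other 6 members.

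No member was silent at the start. In PM the 9 genes already reached 1.35 to 9.51 CPM, so that a threshold of 1 CPM gave D6 as the onset of every member and could not order them. Compared per kb of exon, the highest level in PM was that of Hoxb8 (3.61 ± 0.22 CPM per kb) and the next that of Hoxb1 (3.38 ± 0.18), whose libraries overlapped. Hoxb9 (2.98) and Hoxb7 (2.83) followed and also overlapped, then Hoxb6 and Hoxb4, and the lowest was Hoxb2 at 0.39 ± 0.02 CPM per kb, below every library of Hoxb3 and Hoxb5 at 0.51 each. The genes near the 5′ end thus had the upper part of the order in PM, together with Hoxb1. Levels per kb divide by the whole exon length, and how reads over the antisense genes were assigned is not given. The levels per kb of Hoxb2, Hoxb3 and Hoxb5 may therefore be too low or too high.

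**Figure D1:**
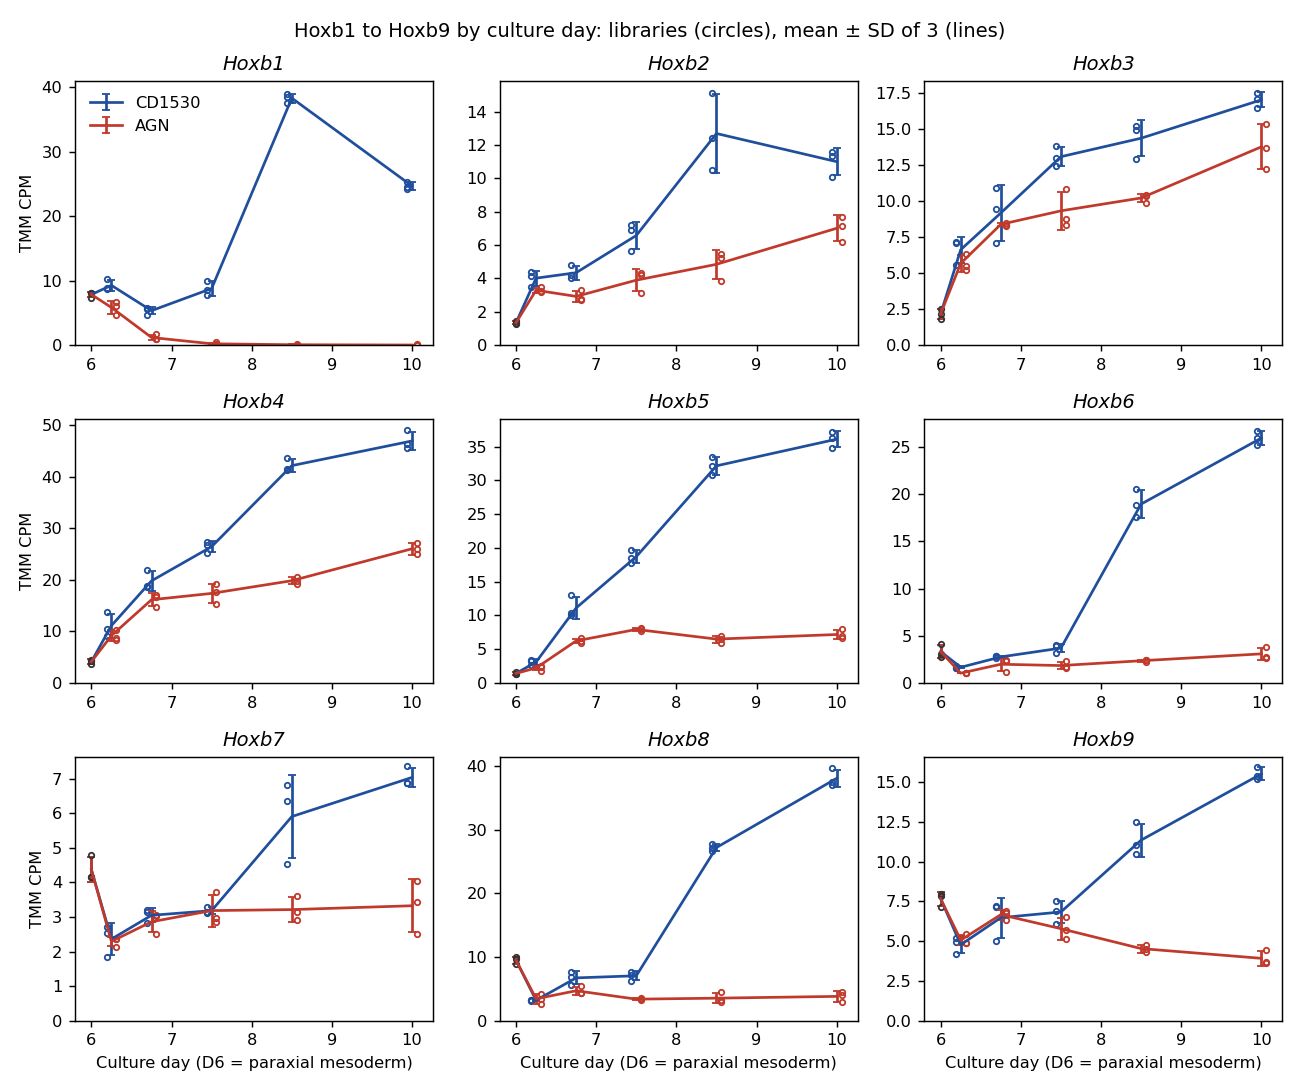
Level of each member (TMM CPM, vertical axis from 0, own scale per panel) by culture day. Circles are libraries, lines and bars are mean ± SD of 3 libraries, dark grey is PM, blue CD1530 and red AGN. Hoxb2 to Hoxb5 rise from D6 with both compounds, Hoxb6 to Hoxb9 dip at D6.25 and are called above PM only with CD1530, from D8.5, and Hoxb1 reaches 38.3 CPM with CD1530 at D8.5 and 0.04 with AGN at D10.

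The comparison with PM at D6.25 asks what the cluster did at once after plating. Apart from Hoxb1, the members divided by position, in the same way with both compounds. Both were compared with the same 3 PM libraries, so the 2 comparisons are not independent. Hoxb2, Hoxb3, Hoxb4 and Hoxb5 were higher than in PM, 4 of 9 with CD1530 (34.5% of all genes were called higher) and 4 of 9 with AGN (35%). Hoxb6, Hoxb7, Hoxb8 and Hoxb9 were lower, 4 of 9 with CD1530 (33.3% of all genes) and, with Hoxb1 as the fifth, 5 of 9 with AGN (33.1%). Calls are edgeR quasi-likelihood tests at a Benjamini-Hochberg adjusted p under 0.05 over all 17120 genes. About as many of all genes moved in each direction in these comparisons, so the number called is near the background, and it is the order of the directions along the cluster that the values add. For all 8 genes of these 2 blocks and both compounds, the 3 induced libraries lay wholly above or wholly below the 3 of PM. The share of all genes whose libraries separated in this way was not counted.

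Hoxb3, whose paralog group acts in the hindbrain and neck, had 2.54, 2.17 and 1.83 CPM in the PM libraries, 5.59, 7.12 and 7.16 with CD1530 at D6.25, and 5.49, 5.22 and 6.30 with AGN. All 6 induced libraries lay above PM, by a log2 fold change of 1.599 ± 0.162 (SE) with CD1530 and 1.37 ± 0.17 with AGN. Hoxb8, which with its neighbours patterns the trunk, went the other way. It had 10.0, 9.63 and 8.89 CPM in PM, 3.22, 3.34 and 3.11 with CD1530, and 3.43, 2.68 and 4.23 with AGN. It fell by 1.56 ± 0.14 and by 1.46 ± 0.14 on the log2 scale, the largest fall of a member with CD1530 at this day. The other members of the 2 blocks rose by 0.64 (Hoxb5 with AGN) to 1.57 (Hoxb2 with CD1530) or fell by 0.60 (Hoxb9 with AGN) to 1.68 (Hoxb6 with AGN), with edgeR adjusted p-values of at most 0.00286.

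Between D6.25 and D10 the block of Hoxb2 to Hoxb5 went on rising. These 4 genes remained called above PM at every day with both compounds, while the size of the rise came to differ. Hoxb4, of the paralog group that marks the neck, had 4.31, 4.49 and 3.61 CPM in PM and at D10 45.5, 48.9 and 46.3 with CD1530 and 27.2, 25.9 and 25.0 with AGN. No library of either compound overlapped with PM or with the other compound. Against PM this was a log2 fold change of 3.50 ± 0.11 with CD1530 and 2.65 ± 0.12 with AGN. Per kb, Hoxb4 had the highest level of the 9 genes at D10 with both compounds, 18.3 ± 0.7 and 10.1 ± 0.4 CPM per kb, above every library of the next gene in the order (Hoxb8 with CD1530, Hoxb3 with AGN).

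Hoxb5 had the largest rise over PM of any member with CD1530. It had 1.29, 1.32 and 1.67 CPM in PM, 13.0, 10.0 and 10.3 with CD1530 at D6.75 and 34.8, 37.2 and 36.3 at D10, a log2 fold change of 4.66 ± 0.12. With AGN it reached 5.90, 6.61 and 6.20 CPM at D6.75 and 6.94, 7.95 and 6.65 at D10. The AGN libraries thus stayed within 5.90 to 8.18 CPM from D6.75 on, while the CD1530 libraries passed 30 CPM by D8.5. Hoxb2 and Hoxb3 rose more alike. At D10 Hoxb2 had 11.6, 10.1 and 11.4 CPM with CD1530 and 6.19, 7.71 and 7.13 with AGN, from 1.28 to 1.44 in PM. Hoxb3 had 17.1, 16.5 and 17.5 against 13.7, 12.2 and 15.3 CPM, the smallest gap of the 9 genes. For Hoxb2 and Hoxb3 the part of antisense reads was not tested.

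Hoxb1, the gene at the 3′ end and a classical target of retinoic acid in the hindbrain, parted from its neighbours. In PM its libraries had 7.37, 8.08 and 8.13 CPM. With AGN it had 4.76, 6.64 and 6.16 CPM at D6.25, then 0.969, 1.70 and 0.950 CPM at D6.75. On D7.5 it had 0.165, 0.093 and 0.444 CPM, from 3, 2 and 9 reads. At D8.5 the AGN libraries held 0, 3 and 2 reads of Hoxb1, and at D10 they held 0, 2 and 0. Each AGN day lay below PM, with PM 6.49 times as high at D6.75 (95% exact counting interval 5.07 to 8.41) and 194 times as high at D10 (53.4 to 1607, from 476 against 2 reads). These intervals cover counting error only. The call at D6.25 against PM was lost without AGN D6.25 replicate 1 (log2 fold change -0.30, edgeR adjusted p 0.0886).

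With CD1530 the same gene rose late. It had 8.76, 8.81 and 10.3 CPM at D6.25, and 5.76, 4.68 and 5.63 CPM by D6.75. It had 7.79, 8.57 and 10.0 CPM on D7.5, which became 38.9, 37.5 and 38.4 CPM by D8.5 and 24.2, 24.4 and 25.3 CPM in the D10 libraries. At D6.25 its 3 libraries lay above PM without a call (0.24 ± 0.13, edgeR adjusted p 0.0989), and it was called with scaling by library size alone (adjusted p 0.044) and when only the 6 libraries compared were fitted (0.0391). The level was below PM at D6.75 (log2 fold change -0.55 ± 0.14, edgeR adjusted p 0.000749), not called at D7.5 (0.17 ± 0.13, adjusted p 0.248), and above PM at D8.5 by 2.28 ± 0.12. From D8.5 to D10 it fell by 0.63 ± 0.10, and no other member was called lower over that step. Hoxb2 (-0.20 ± 0.12) was called lower as well with scaling by library size alone (-0.30, edgeR adjusted p 0.0361) and without CD1530 D8.5 replicate 2 (-0.33, 0.0314). The 3 D10 libraries lay below the 3 of D8.5. Per kb it shared the top of the order at D8.5 with Hoxb4 (16.5 ± 0.3 and 16.4 ± 0.5 CPM per kb, overlapping) and was in the fifth place at D10.

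With CD1530, Hoxb6 to Hoxb9 recovered from the dip at D6.25 at different speeds and passed the level of PM. With AGN none of them was called above PM, and Hoxb8 and Hoxb9 were still below it at D10. Hoxb6 had 3.11, 4.16 and 2.75 CPM in PM, 1.78, 1.65 and 1.58 with CD1530 at D6.25, and 3.92, 3.99 and 3.21 at D7.5. It then had 18.8, 17.6 and 20.5 CPM by D8.5 and 26.0, 26.7 and 25.2 CPM on D10. With AGN it had 1.05, 1.07 and 1.01 at D6.25 and 2.69, 3.79 and 2.79 at D10. The D10 values with CD1530 stood 2.95 ± 0.13 above PM on the log2 scale, and those with AGN overlapped PM (-0.12 ± 0.18, edgeR adjusted p 0.552). Hoxb8 had 6.26, 7.23 and 7.71 CPM with CD1530 at D7.5, still below every PM library, then 27.7, 27.2 and 26.7 by D8.5 and 37.0, 37.5 and 39.6 on D10. With AGN it stayed between 2.68 and 5.42 CPM at every day. Against PM at D10 it was higher by 2.00 ± 0.10 with CD1530 and lower by a log2 fold change of -1.31 ± 0.14 with AGN.

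Hoxb9 and Hoxb7 moved less. Hoxb9, the member nearest the 5′ side, had 7.85, 7.98 and 7.16 CPM in PM, 15.4, 15.2 and 16.0 with CD1530 at D10 and 3.63, 4.46 and 3.68 with AGN. It rose by 1.01 ± 0.11 on the log2 scale in the first case and was at -0.97 ± 0.14 in the second, and the libraries of the 3 groups did not overlap. With AGN its group mean was lowest at D10, after 6.66 ± 0.31 CPM at D6.75. Hoxb7 had 4.16, 4.16 and 4.79 CPM in PM, 6.87, 6.88 and 7.36 with CD1530 at D10 and 2.50, 4.03 and 3.45 with AGN. Its rise at D8.5 with CD1530 (0.44 ± 0.15) overlapped PM in 1 library and its call was lost without CD1530 D8.5 replicate 2 (edgeR adjusted p 0.0744). Its lower level at D10 with AGN (-0.39 ± 0.17) lost its call without PM replicate 3 (adjusted p 0.108) and without AGN D10 replicate 1 (0.239).

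**Figure D2:**
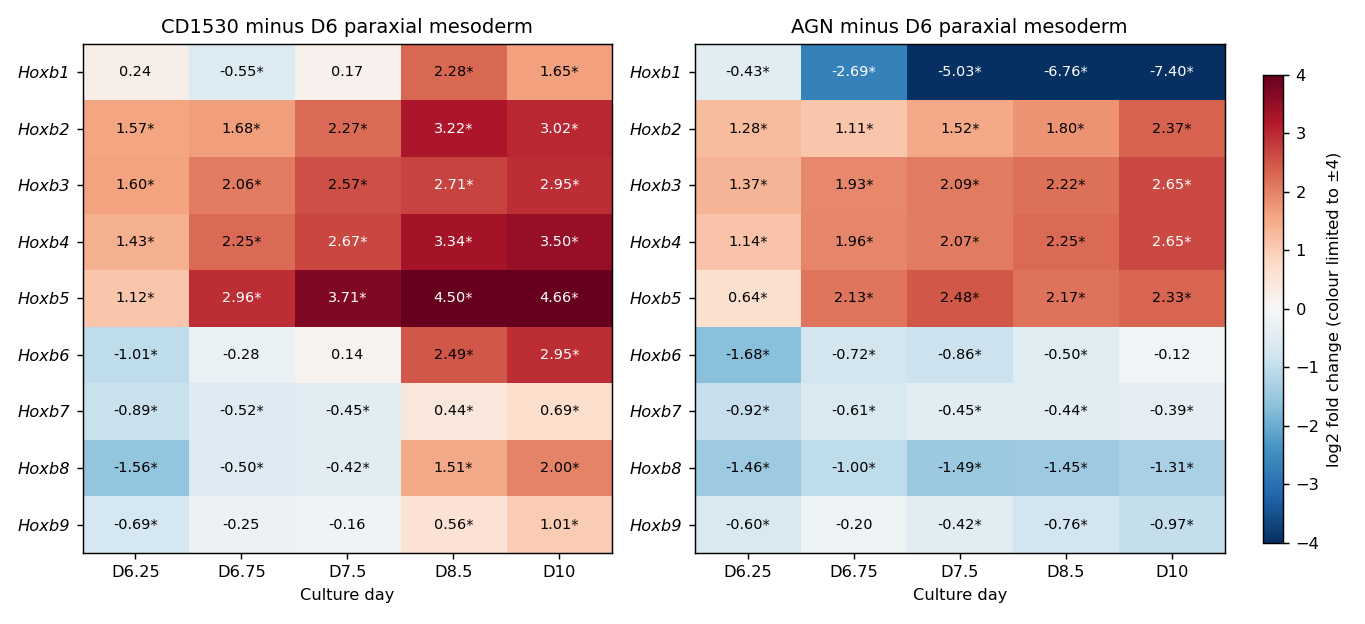
Log2 fold change of each member (rows, from the 3′ end at the top) against PM by culture day (columns), CD1530 on the left and AGN on the right. An asterisk marks an adjusted p under 0.05. Rows Hoxb2 to Hoxb5 are positive throughout on both sides, rows Hoxb6 to Hoxb9 are positive with an asterisk from D8.5 on the left and have no positive cell on the right, and the Hoxb1 cells of AGN from D7.5 on rest on 14, 5 and 2 reads.

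Counted by day, the members above PM with CD1530 numbered 4 at D6.75 (38.3% of all genes higher) and 4 at D7.5 (39.8%). They numbered 9 by D8.5 (41.2%) and on D10 (43.3%). Those below PM were 3 at D6.75 (Hoxb1, Hoxb7 and Hoxb8; 33.7% of all genes lower), 2 at D7.5 (Hoxb7 and Hoxb8; 34.3%) and 0 from D8.5 on. With AGN the same 4 genes, Hoxb2 to Hoxb5, were above PM at D6.75 (39% of all genes higher) and D7.5 (37.3%), and again on D8.5 (38.3%) and D10 (41.6%). Below PM with AGN were 4 at D6.75 (34.5%), all 5 others at D7.5 (34.2%) and D8.5 (37.7%), and 4 at D10 (40.4%), when Hoxb6 was no longer called. The call of Hoxb6 at D8.5 with AGN was lost without PM replicate 2 (edgeR adjusted p 0.106), and that of Hoxb7 without PM replicate 3 at D7.5 (0.0591) and D8.5 (0.0503) and without AGN D7.5 replicate 3 at D7.5 (0.0648). The call of Hoxb7 at D7.5 with CD1530 was also lost without PM replicate 3 (0.0525).

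The onset of a member was taken as the earliest day on which it was called above PM with a log2 fold change of at least 1. In the CD1530 series, Hoxb2 to Hoxb5 had their onset at D6.25, when 4 of 9 members met that rule against 13.4% of all genes. Hoxb1, Hoxb6 and Hoxb8 followed at D8.5 (7 of 9 members, 20.7% of genes) and Hoxb9 at D10 (8 of 9, 24.7%), and Hoxb7 did not meet the rule by D10. With AGN, Hoxb2 to Hoxb4 had their onset at D6.25 (3 of 9, 13.4% of genes) and Hoxb5 at D6.75 (4 of 9, 17.6%), and the other 5 members did not meet the rule. From Hoxb2 to Hoxb9 no onset with CD1530 came before that of a gene nearer the 3′ end, except that Hoxb8 and Hoxb9 met the rule and Hoxb7 did not. Hoxb1, at the 3′ end itself, came later than its 4 neighbours with CD1530 and had no onset with AGN. Without a minimum fold, Hoxb7 and Hoxb9 had their onset at D8.5 with CD1530 and Hoxb5 at D6.25 with AGN. With a minimum log2 fold change of 2, the CD1530 onsets were D6.75 for Hoxb3 to Hoxb5, D7.5 for Hoxb2 and D8.5 for Hoxb1 and Hoxb6, and Hoxb7 to Hoxb9 had none. Those with AGN were D6.75 for Hoxb5, D7.5 for Hoxb3 and Hoxb4 and D10 for Hoxb2. Within the interval from D6 to D6.25 the order of Hoxb2 to Hoxb5 cannot be resolved.

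The day on which a group mean crossed the midpoint between PM and its highest mean gave a finer order, by straight lines between days. With CD1530 it was D6.83 for Hoxb3, D7.40 for Hoxb4, D7.50 for Hoxb5, D7.57 for Hoxb2, D7.98 for Hoxb1, D8.22 for Hoxb6, D8.33 for Hoxb8, D8.43 for Hoxb7 and D8.59 for Hoxb9. All 4 of Hoxb6 to Hoxb9 came after all 4 of Hoxb2 to Hoxb5, with Hoxb1 between them. With AGN the 4 rising genes reached it at D6.56 (Hoxb5), D6.67 (Hoxb3 and Hoxb4) and D7.80 (Hoxb2). These days depend on the height of each maximum and on the spacing of the samples, and carry no error.

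The contrast of CD1530 with AGN on the same day compares monolayers of equal age in otherwise equal medium. The number of members called was 1 of 9 at D6.25 (1.23% of all genes were called higher with CD1530) and 5 at D6.75 (7.94%). It was 7 on D7.5 (15.2%), 9 by D8.5 (20.4%) and 9 again on D10 (22.7%), and each called member was higher with CD1530. At D8.5 and D10 the 3 CD1530 libraries of each of the 9 genes lay above the 3 of AGN, and how many of all genes did so was not counted. The median log2 fold change of the 9 genes was 0.28, 0.44, 0.75, 1.43 and 1.98 on the successive days, where the median of all genes stayed between -0.02 and 0.01. Hoxb1 was the member that differed at D6.25 (0.67 ± 0.14, edgeR adjusted p 0.00247), and that call was lost without AGN D6.25 replicate 1 (0.54, adjusted p 0.062).

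From then on the gap opened gene by gene. Members that were called at a day and on all later days were Hoxb1 from D6.25, Hoxb2, Hoxb4, Hoxb5 and Hoxb8 from D6.75, Hoxb3 and Hoxb6 from D7.5, and Hoxb7 and Hoxb9 from D8.5. At D6.75 the calls of Hoxb4 (0.29 ± 0.09) and Hoxb8 (0.50 ± 0.14) were lost when only the 6 libraries compared were fitted (edgeR adjusted p 0.114 and 0.079). Single libraries also decided calls at D6.75: Hoxb2 without AGN replicate 1 (adjusted p 0.072), Hoxb4 without CD1530 replicate 1 (0.11) or AGN replicate 2 (0.144), and Hoxb8 without CD1530 replicate 2 (0.0554). For Hoxb7 and Hoxb9 the difference at D7.5 was -0.01 (95% interval -0.33 to 0.32) and 0.25 (0.01 to 0.50), neither called.

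**Figure D3:**
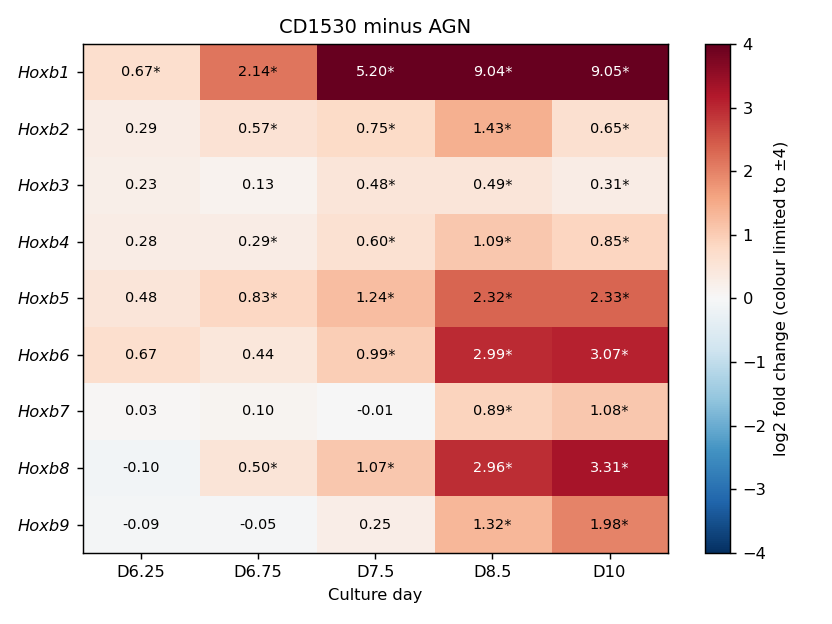
Log2 fold change of CD1530 minus AGN for each member (rows) by culture day (columns), with an asterisk for an adjusted p under 0.05. The number of marked cells grows from 1 at D6.25 to 9 at D8.5 and D10, and no marked cell is negative.

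At D10 the size of the difference was uneven along the cluster. Hoxb1 was highest, with 1374 reads in the 3 CD1530 libraries against 2 in the 3 of AGN, a ratio of 609 (95% exact counting interval 168 to 5035). The ratio was 577 (247 to 1780) on D8.5 and 37.95 (22.4 to 69.9) on D7.5. The next 3 genes differed least, Hoxb2 by 0.65 ± 0.13, Hoxb3 by 0.31 ± 0.11 and Hoxb4 by 0.85 ± 0.08 on the log2 scale. Hoxb5, Hoxb6 and Hoxb8 differed by 2.33 ± 0.09, 3.07 ± 0.14 and 3.31 ± 0.12, folds of 5.02, 8.38 and 9.89. Hoxb7, between Hoxb6 and Hoxb8, differed by 1.08 ± 0.16 and Hoxb9 by 1.98 ± 0.12. The 95% intervals of Hoxb7 (0.77 to 1.38) and of its neighbours Hoxb6 (2.79 to 3.34) and Hoxb8 (3.07 to 3.54) did not overlap. Of the 9 calls at D10, that of Hoxb3 was lost when single libraries were left out (edgeR adjusted p 0.0572 without CD1530 D10 replicate 3 and 0.129 without AGN D10 replicate 2).

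A joint test asked whether the CD1530 minus AGN difference was the same on all 5 days. It was called for 8 of the 9 members, where 48.8% of all genes were called, with edgeR adjusted p-values from 2.95e-23 for Hoxb1 to 0.000183 for Hoxb2. Hoxb3 was the exception at 0.221. For Hoxb2 the difference was largest at D8.5 (1.43 ± 0.13) and smaller at D10, while for Hoxb6 to Hoxb9 the estimates were largest at D10.

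Between D8.5 and D10 with CD1530, 3 of the 4 genes of the 5′ block rose further and Hoxb1 fell. Hoxb6 (0.45 ± 0.11), Hoxb8 (0.48 ± 0.09), Hoxb9 (0.45 ± 0.10) and Hoxb3 (0.24 ± 0.11) rose, 4 of 9 against 27.4% of all genes, and 1 of 9 fell, against 29.9%. Hoxb7 was not called (0.25 ± 0.14, edgeR adjusted p 0.132). The call of Hoxb3 (edgeR adjusted p 0.0481) was lost with scaling by library size alone (0.218) and in 5 of the 6 fits that left out 1 library (0.0575 to 0.222), every one but that without CD1530 D8.5 replicate 2. With AGN, Hoxb2 (0.57 ± 0.15), Hoxb3 (0.43 ± 0.11) and Hoxb4 (0.39 ± 0.09) rose, 3 of 9 against 29.9% of all genes, and none fell. The difference between the steps of the 2 compounds was not tested on its own.

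Summed over the 9 genes per kb, the cluster had 17.5 ± 0.6 CPM per kb in PM (SD, n = 3), and at D10 87.2 ± 1.3 with CD1530 and 24.7 ± 1.3 with AGN. The make-up of the sum changed as well. Hoxb6 to Hoxb9 made up 63.4% ± 0.6 of it in PM, and 31.0% ± 3.3 with CD1530 and 36.7% ± 3.1 with AGN at D6.25. At D10 their share was 43.8% ± 0.3 with CD1530 and 27.1% ± 3.6 with AGN. Hoxb2 to Hoxb5 made up 17.3% ± 0.7 in PM, 44.0% ± 0.5 with CD1530 at D10 and 72.9% ± 3.7 with AGN at D10. Hoxb1 made up 19.3% ± 1.2 in PM and 12.2% ± 0.2 with CD1530 and 0.0663% ± 0.115 with AGN at D10. The 2 blocks were named after their courses were known, so these shares are a description. The limit that antisense genes set on the levels per kb of Hoxb2, Hoxb3 and Hoxb5 applies to the sum and the shares too.

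**Figure D4:**
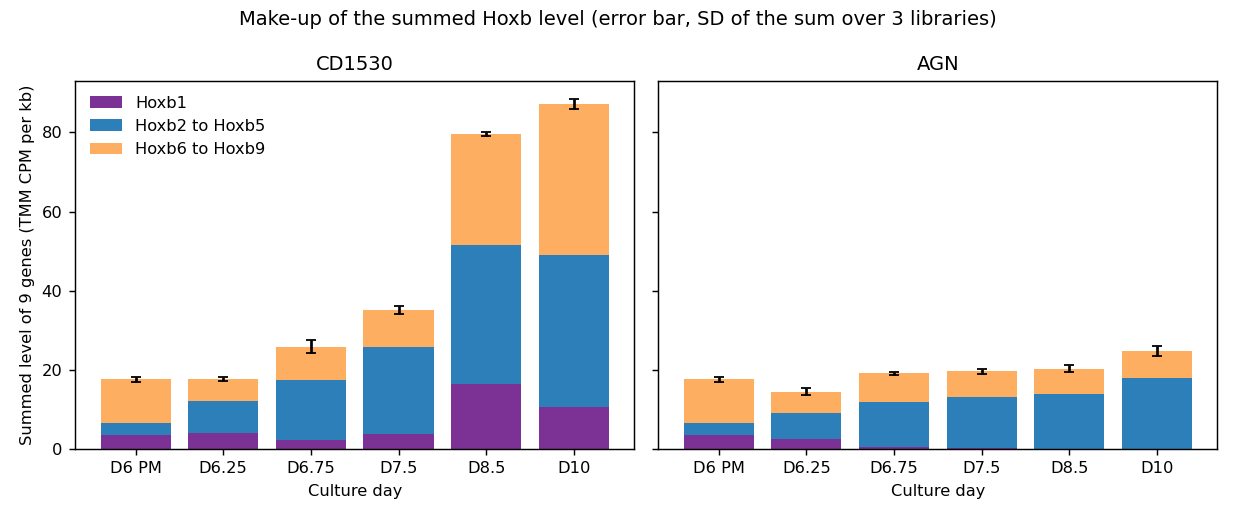
Summed level of the 9 members (TMM CPM per kb of exon, from 0) in PM and by culture day, CD1530 on the left and AGN on the right, stacked by Hoxb1, Hoxb2 to Hoxb5 and Hoxb6 to Hoxb9. Bars are means of 3 libraries and the error bar is the SD of the sum. The mean sum reaches 79.7 CPM per kb at D8.5 with CD1530 and at most 24.7 with AGN.

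Over the 11 group means on the log2(CPM + 1) scale, the courses of Hoxb2 to Hoxb5 correlated among themselves at 0.868 to 0.977 and those of Hoxb6 to Hoxb9 at 0.877 to 0.963. Between the 2 blocks the values ran from 0.276 (Hoxb3 with Hoxb9) to 0.803 (Hoxb5 with Hoxb6). The blocks were named from these same courses, so high values within them are no support for the division. Hoxb1 correlated with Hoxb3 at 0.053 and with Hoxb8 at 0.773. The 11 points share the PM group and the order of days, so these values describe likeness and are no test. Among 15448 genes outside the Hox clusters with a mean of at least 1 CPM, the course most like that of Hoxb3 was that of Meis1, a Hox partner (r = 0.994). Meis1 went from 4.15 ± 0.15 CPM in PM to 42.6 ± 2.1 with CD1530 and 36.7 ± 2.4 with AGN at D10. For Hoxb1 they were Wfikkn1 (0.977) and Stra6, a retinol transporter that retinoic acid is known to raise (0.929). Stra6 had 27.0 ± 1.8 CPM in PM, 384 ± 1 with CD1530 and 11.2 ± 0.6 with AGN at D10. Other genes named by likeness were Caskin2 (0.990) for Hoxb3, Ntn4 (0.987) for Hoxb4, Gm42547 (0.967) and Batf3 (0.965) for Hoxb2, Cntfr (0.975) and Fndc5 (0.968) for Hoxb5. For the 5′ block they were 1700013H16Rik (0.970) and Taf7l (0.969) for Hoxb6, Fgfbp3 (0.979) and Scrn3 (0.936) for Hoxb7, Gkap1 for both Hoxb8 (0.959) and Hoxb9 (0.945), Caskin1 (0.955) for Hoxb8 and Lyrm9 (0.932) for Hoxb9.

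Of 24 genes listed as inputs and partners of Hox genes (retinoic acid receptors, Cyp26 enzymes that degrade retinoic acid, Cdx factors, Meis and Pbx partners, and others), 23 were in the table. Between CD1530 and AGN, 7 of the 23 were higher and 1 lower at D6.25, where 1.23% of all genes were higher and 0.695% lower. At D10, 12 were higher and 4 lower, where 22.7% of all genes were higher and 24% lower. The retinoic acid target Cyp26a1 had 0.40 CPM in PM, 74.1 with CD1530 and 41.0 with AGN at D6.25, and at D10 169 and 2.45. It was thus above PM with AGN too at D6.25 (edgeR adjusted p 2.8e-36). Cdx1, a Wnt and retinoic acid target that acts on Hox genes, had 33.4 CPM in PM, 9.5 with CD1530 and 5.47 with AGN at D6.25, and at D10 8.76 and 0.08. Cdx2 had 22.8 CPM in PM, 4.78 and 6.02 at D6.25, and 0.25 and 0.06 at D10. Both Cdx genes thus had lower means than in PM at D6.25 and at D10 with both compounds. Against PM at D6.25, 15 of the 23 listed genes were higher and 4 lower with CD1530 (34.5% and 33.3% of all genes). With AGN 16 were higher and 5 lower (35% and 33.1%). Meis2 differed by 3.43 ± 0.09 and Rarb by 5.63 ± 0.14 on the log2 scale at D10, both higher with CD1530. What part any of these genes had in the Hoxb levels was not tested.

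Genes beside the cluster were examined with the same fit. Of 9 protein-coding genes within 300 kb of either side, 8 were in the table, and at D10 6 of the 8 were higher with CD1530 than with AGN and none lower, beside 22.7% and 24% of all genes. Among them were Hoxb13 (1.17 ± 0.20 against 0.12 ± 0.10 CPM), the remote 5′ member of the Hoxb family, Calcoco2 (4.39 against 0.47) and Skap1 (1.32 against 0.47). Ttll6 had 0.79 against 0.06 CPM, Igf2bp1 differed by 0.27 ± 0.04 and Ube2z by 0.11 ± 0.03 on the log2 scale, and Atp5g1 (0.12 ± 0.08) and Snf8 (0.11 ± 0.08) were not called. Calcoco2 had 13.8 CPM in PM and was below PM with both compounds at D10.

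**Figure D5:**
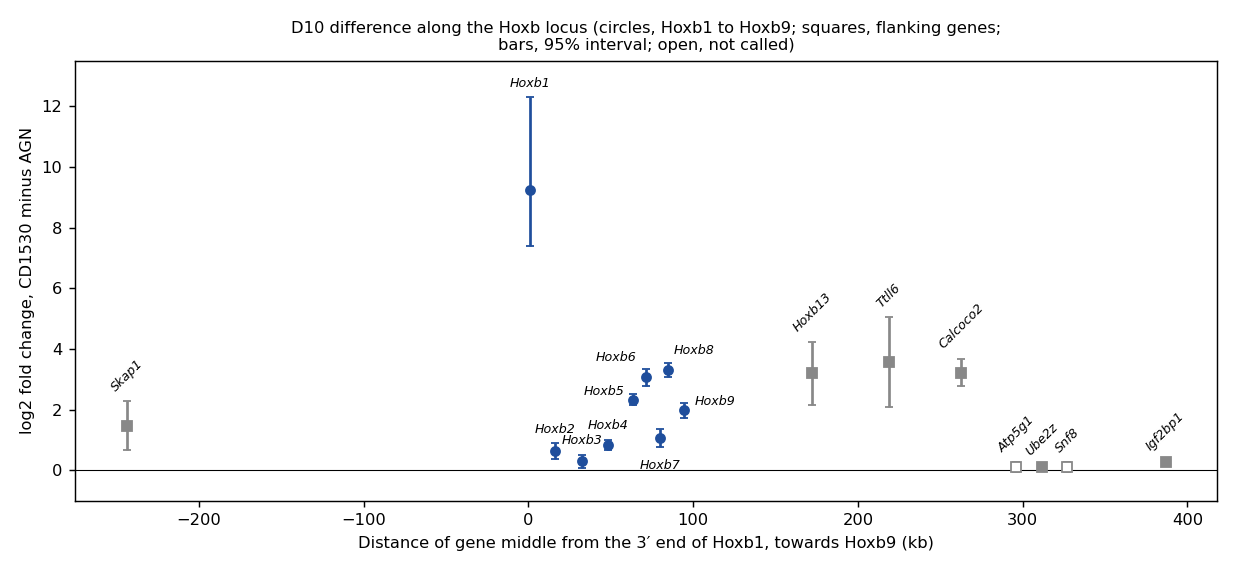
Log2 fold change of CD1530 minus AGN at D10 (vertical axis) against the distance of each gene's middle from the 3′ end of Hoxb1 towards Hoxb9 (kb). Circles are Hoxb1 to Hoxb9, squares the 8 flanking genes, bars the 95% interval, and open symbols genes not called. Hoxb1 is drawn at its read ratio of 609 with the counting interval, Hoxb2 to Hoxb4 lie under 1, and Hoxb5, Hoxb6 and Hoxb8 over 2.

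Within the cluster the antisense gene Hoxb5os was higher with CD1530 at D10 (6.45 ± 0.34 against 2.17 ± 0.23 CPM, log2 fold change 1.57 ± 0.23), as it was at D6.75 and D8.5, and Hoxb3os was not called at D10 (2.22 ± 0.13 against 1.81 ± 0.86 CPM, adjusted p 0.429 by edgeR). Both lie on the minus strand over member exons, and the kit cannot tell them from their partners. The further genes annotated in or near the span, Gm53 and Gm11536, had 3.06 against 2.15 CPM and 0.88 against 0.38 CPM at D10.

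In the other clusters at D10, 8 of 11 Hoxa genes were higher and 1 lower with CD1530, and 7 of 9 Hoxc genes were higher, beside 22.7% of all genes higher and 24% lower. Of the 8 Hoxd genes the smallest edgeR adjusted p at D10 was 0.0943, that of Hoxd3. On earlier days some Hoxd genes were called between the compounds. With CD1530, 1 of the 8 was lower at D6.75 (10% of all genes lower). At D7.5, 1 was higher and 2 lower (15.2% and 11.8%), and at D8.5, 3 were lower and 0 higher (19.6% and 20.4%). The difference between clusters was not itself tested. Hoxa5 (91.5 against 9.02 CPM) and Hoxc5 (19.0 against 1.49), paralogs of Hoxb5, differed by 3.34 ± 0.09 and 3.66 ± 0.15 on the log2 scale at D10, beside 2.33 ± 0.09 for Hoxb5. Whether these 3 values differ was not tested.

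Markers of other cell types also differed between the compounds. At D10 all 11 neural markers in the table were higher with CD1530, with a sum of 191 to 204 CPM per library against 76.9 to 79.3 with AGN, and 588 to 604 in PM. The sum in PM was mostly Sox2. Against PM, 9 of the 11 markers were higher with CD1530 at D10 and 2 lower (Sox2 and Tubb3), beside 43.3% and 39.9% of all genes. With AGN 4 were higher than in PM and 5 lower, near the shares of all genes (41.6% higher and 40.4% lower). Of the 11, Dcx was at 0 in all 3 PM libraries, and in AGN D10 1 marker was at 0. Of 6 markers of lateral and intermediate mesoderm, 5 were higher with CD1530 (54.9 to 58.0 against 11.3 to 12.8 CPM), and all 4 cartilage markers were lower (223 to 229 against 2909 to 3042). Between the compounds at D10, 22.7% of all genes were higher with CD1530 and 24% lower. At D7.5, when 7 of 9 members already differed, 5 of 11 neural markers were higher with CD1530 and 1 lower (sums of 333 to 341 CPM against 292 to 311). On that day 4 of 5 endothelial markers were higher (401 to 424 against 247 to 274 CPM), 4 of 5 endoderm markers were lower (356 to 379 against 562 to 582 CPM), and 1 of 6 markers of lateral and intermediate mesoderm was higher. Of all genes, 15.2% were higher and 11.8% lower at D7.5. What part a different mix of cells had in the Hoxb differences was not tested.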

How the data were processed

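RNA-seq libraries from 33 mouse cultures in 11 groups of 3 were used. The authors aligned reads with STAR to GRCm38, assigned them to genes with featureCounts and deposited raw counts per gene, which are not normalized. Which annotation they used, and how strand and multiply aligned reads were handled, is not given in the sources used here. Positions and exon lengths came from GENCODE M21, to which 17120 of 17120 identifiers matched.

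Counts of all 33 libraries were fitted in R 4.3.3 with edgeR 4.0.16 (TMM scaling, robust quasi-likelihood F test, a mean per group, no covariates). The filter on low counts removed 0 of 17120 genes. P-values were adjusted by Benjamini and Hochberg over all genes, separately for each of the 18 contrasts, with calls at an adjusted p under 0.05. The SE is the log2 fold change divided by the root of F. With 3 libraries a group, an exact permutation test of a single gene could not go below 0.1, so tests rest on the spread shared across genes. Total counts ran from 17116084 to 38120841 and the biological coefficient of variation was 4.68%. Where AGN libraries held few Hoxb1 reads, summed reads were compared with an exact 95% binomial interval.

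The fit was tested on simulated data. No replicate columns were identical, and each pair differed by more than sampling noise (chi-square per gene of at least 1.56). Positions, motifs and figures came from Python 3.11.15, and promoter sequences from RefSeq (GRCm38.p6), which held 3 of the 9 members. The members, the gene lists and the tests were chosen with earlier results of these data known. The genes named were the 9 members, the genes inside or within 300 kb of the cluster, 24 listed inputs and partners, the other Hox genes, the cell type marker lists, and the 2 genes outside the Hox clusters whose course was most like that of each member. A result that these rules would name is not reported here. Alternatives were DESeq2 (1.42.0) size factors, library size alone, no filter, a filter at 1 CPM in 3 libraries, the DESeq2 test, only the groups compared, the replicate number as a block, leaving out each library, other onset thresholds and a pseudocount of 0.1 for likeness. The study's single-cell and other assays were not used here.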

Additional observations from a re-analysis of the deposited data

Results flagged for a closer look

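For 8 of the 9 members the gap between the compounds varied over the 5 days, by an edgeR quasi-likelihood F test on 4 degrees of freedom that the CD1530 minus AGN value is equal on every day, adjusted over all genes. Among the genes of the 3′ side the adjusted p was 2.95e-23 for Hoxb1, 0.000183 for Hoxb2, 1.54e-06 for Hoxb4 and 2.26e-14 for Hoxb5. Towards the 5′ side it was 1.10e-13 for Hoxb6, 5.12e-05 for Hoxb7, 3.21e-19 for Hoxb8 and 5.81e-14 for Hoxb9. For each of these genes the difference was wider at D10 than at D6.25. Of all genes, 48.8% were called by the same test.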

How the results depend on the processing

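The number of members called in each of the 18 tests stayed within 1.5 times its value under every alternative and left-out library, with 2 exceptions. Between CD1530 and AGN at D6.25 it ranged from 0 to 1 over fits without 1 library, and was 0 without AGN D6.25 replicate 1. At D6.75 it fell from 5 to 3 when only the groups compared were fitted. Between D8.5 and D10 with CD1530 it ranged from 4 to 6 without 1 library and from 5 to 7 under other settings, where Hoxb4 and Hoxb5 gained calls. Hoxb9 at D6.75 with CD1530 was not called in the reported fit and was called below PM in 5 of 13 others, namely with DESeq2 size factors (adjusted p 0.0296), with the DESeq2 test (0.0384), and without PM replicate 3 (0.0431), CD1530 D6.75 replicate 1 (0.0207) or replicate 2 (0.021). Replicate numbers did not pair the samples: in 0 of 17 comparisons were all 3 pair correlations over 0.1 (range -0.292 to 0.116), and with the replicate number as a block each count of calls was as reported, for example 1 at D6.25, 5 at D6.75 and 9 at D10 between the compounds. Of the log2 fold changes between the compounds, 5 changed sign when 1 library was left out, in 9 such fits, and all 5 were uncalled differences near 0. Their ranges over such fits were -0.0761 to 0.192 for Hoxb7 and -0.248 to 0.0695 for Hoxb8 at D6.25. On D6.75 they were -0.0171 to 0.284 for Hoxb3 and -0.133 to 0.110 for Hoxb9, and on D7.5 -0.0797 to 0.127 for Hoxb7. The causes of these changes were not tested. Scaling by library size alone moved the median of all genes by more than 0.1 at D10 against PM (-0.112 with CD1530 and -0.149 with AGN), and no called member changed direction. With a pseudocount of 0.1, Stra6 was in place 22 by likeness to Hoxb1. Low counts limit Hoxb1 with AGN, which rests on 14 reads at D7.5 and 2 at D10.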
